A study of Mus musculus with 6 samples.

Results

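The mitochondrial genome of the mouse carries 37 genes, and all of them were in the table analysed here. They were taken by name, as the genes whose symbol starts with mt-, and made up 37 of the 54532 genes measured. They comprised 13 messenger RNAs (mRNAs) for subunits of the oxidative phosphorylation complexes, the 2 ribosomal RNAs (rRNAs) of the mitochondrial ribosome and 22 transfer RNAs (tRNAs). All 37 lay on the mitochondrial chromosome (MT), and every one had a length equal to its span from start to end. Reads were found in all 6 libraries for 24 of them and in none for 5, and 27 reached the mean of at least 1 FPKM needed for a test: the 13 mRNAs, both rRNAs and 12 tRNAs. RNA was sequenced in 6 libraries made from testis cell suspensions of mice, whose cells the labels describe as STRA8+. They were 3 libraries labelled control with the genotype Cre and 3 labelled knockout from a conditional knockout. STRA8 marks germ cells on their way into meiosis. The study's title concerns BCAS2, hnRNPH1 and splicing in meiotic prophase I. The labels name neither the deleted gene, nor the promoter that drives Cre, nor the age or strain of the animals, and they do not say whether the 3 libraries of a group came from separate animals. The p-values below therefore measure the spread between libraries, which may be technical.

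Mitochondrial DNA is a small circle that is transcribed from both of its strands into long precursors by a single RNA polymerase, POLRMT, with the help of the packaging and initiation factor TFAM. The tRNAs lie between most mRNAs and rRNAs, and cutting the precursor at the tRNAs releases most of these RNAs. No tRNA lies between mt-Atp8 and mt-Atp6, mt-Atp6 and mt-Co3, or mt-Nd4l and mt-Nd4, whose genes overlap. The mRNAs encode core subunits of complexes I, III, IV and V, which are assembled together with many subunits made from nuclear genes. In the testis, germ cells change their mitochondria and their fuel as they pass from spermatogonia through meiosis to spermatids.

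The libraries held 14532453 to 16963019 reads, as recovered from the deposited values. The deposited unit is FPKM, fragments per kilobase per 1000000 fragments, but the library factor behind it was not the library total: it was 0.691 to 0.774 times the total in the controls, against 1.37 to 1.42 times in the knockout. Levels as deposited and shares of the library's reads are therefore both given. The median gene differed by -0.41 on the log2 scale between knockout and control as deposited, and by 0.46 when reads were scaled by library total. With limma on log2(FPKM + 0.5), 14537 of 16791 genes tested passed an adjusted p of 0.05, which is 86.6%: 6075 were higher in the knockout (36.2%) and 8462 lower (50.4%). After FPKM were rescaled to the same sum in each library, 9109 were higher (54.2%) and 6084 lower (36.2%), and after the same over the nuclear genes alone 9464 were higher (56.4%) and 5849 lower (34.8%). By reads scaled with the library total (limma voom), 8470 were higher (50.4%) and 6516 lower (38.8%). A test of any gene is set against a comparison in which most genes were called.

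Reads from the mitochondrial genome took a larger share of every knockout library than of any control library. They were 1.28%, 1.89% and 1.48% of all reads in controls 1, 2 and 3, and 5.26%, 5.37% and 4.52% in knockouts 1, 2 and 3. The means were 1.55% ± 0.309 (SD, n = 3) in the control and 5.05% ± 0.461 (SD, n = 3) in the knockout, a ratio of 3.26. The groups did not overlap. The exact two-sided permutation test gave p = 0.1, the smallest that 3 libraries against 3 allow, and 0.14 after Benjamini-Hochberg adjustment over the 14 shares and ratios examined. Of the summed FPKM, the mitochondrial genes took 2.98% to 4.39% in the controls, against 12.8% to 14.8% in the knockout.

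**Figure D1:**
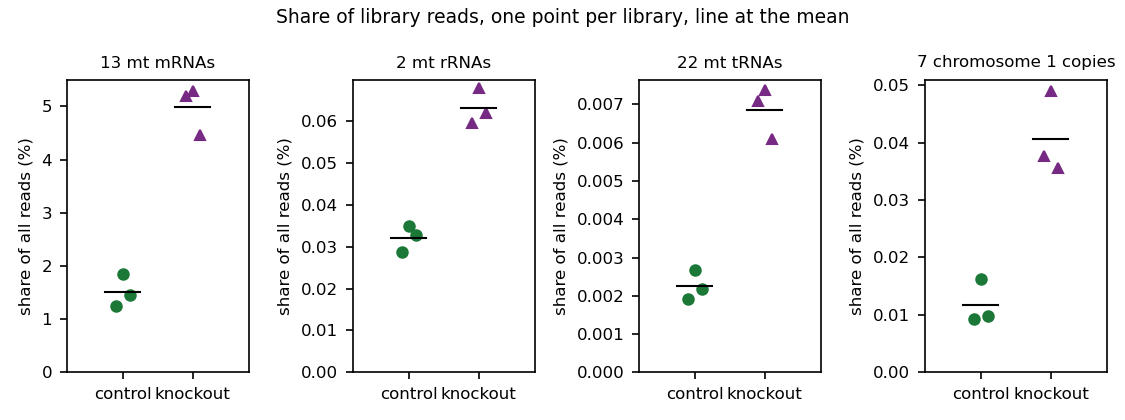
Share of all reads in each library (%, vertical axis from 0) for the mt mRNAs, the mt rRNAs, the mt tRNAs and the 7 annotated copies of mitochondrial sequence on chromosome 1. Each point is a library, circles are controls, triangles are knockouts and lines are means; in each of the 4 panels all 3 knockout libraries lie above all 3 controls.

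Markers of germ cell stages and of other cell types differed between the groups, and these values stand beside every result below. Counts of markers are as deposited, where 36.2% of all genes tested were higher and 50.4% lower. All 12 spermatid markers were lower in the knockout, and their summed share of reads was 1.39% to 1.46% in the controls, against 0.00135% to 0.00181% in the knockout. All 10 pachytene markers were lower, with 0.861% to 0.919% against 0.0233% to 0.0315%. Of the 10 spermatogonial markers, 8 were higher and 2 lower, with 0.0133% to 0.0223% against 0.140% to 0.177%. All 10 Sertoli markers were higher, with 0.0234% to 0.0612% against 0.202% to 0.376%. Of the macrophage markers 3 of 7 were higher, with 0.00720% to 0.0143% against 0.0239% to 0.0731%. Knockout 1 held the highest macrophage share, 0.0731%, beside 0.0239% and 0.0282% in knockouts 2 and 3. Each marker of these 5 lists had reads in both groups. The 6 general germ cell markers were split, 4 higher and 2 lower, and Stra8 itself rose from 17.0 ± 5.55 to 133 ± 6.42 FPKM (SD, n = 3; limma adjusted p = 4.09e-06). The 8 photoreceptor markers, included because the labels' extraction text speaks of retina, took 0.00066% to 0.00126% of the reads, and none passed the filter. Of the other lists, 1 of 6 Leydig markers tested was higher and 3 lower, 0 of 4 peritubular myoid markers were called, 1 of 3 erythroid markers was lower, and no endothelial marker passed the filter. The part of these cells in the mitochondrial values was not tested. In bulk RNA, a different mix of cells and a different amount of mitochondrial RNA per cell cannot be told apart.

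The ratio of the groups was smaller for the rRNAs than for the mRNAs and tRNAs. The 13 mRNAs held 1.25%, 1.85% and 1.45% of the reads in the controls, against 5.19%, 5.29% and 4.45% in the knockout, a ratio of 3.29. The 2 rRNAs held 0.0286%, 0.0348% and 0.0327% in the controls, against 0.0596%, 0.0678% and 0.0619% in the knockout, a ratio of 1.97. The 22 tRNAs held 0.00192%, 0.00266% and 0.00218% in the controls, against 0.00708%, 0.00737% and 0.00610% in the knockout, a ratio of 3.04. In none of the 3 classes did the groups overlap (exact permutation p = 0.1 each). Inside the mitochondrial reads, which no scaling between libraries touches, the log2 ratio of rRNA to mRNA reads was -5.45, -5.73 and -5.47 in the controls, against -6.45, -6.29 and -6.17 in the knockout. All knockout libraries lay below all controls, with a difference of -0.75 (exact permutation p = 0.1). The log2 ratio of tRNA to mRNA reads was also below the controls in every knockout library, but only by 0.12 at the mean (difference -0.12, exact permutation p = 0.1). The labels used here do not say how rRNA was treated before sequencing, and the part of that step in the rRNA share was not tested.

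Among the mRNAs, 7 stood at high levels in both groups and 6 at low levels. Levels are given per gene length, in FPKM as deposited. In the control, mt-Co1 led with 6236 ± 874 (SD, n = 3), followed by mt-Cytb with 2665 ± 449, mt-Nd1 with 2407 ± 450, mt-Nd2 with 1437 ± 195, mt-Nd4 with 1139 ± 215, mt-Nd6 with 1071 ± 164 and mt-Nd5 with 884 ± 162 FPKM. The next mRNAs were mt-Co2 with 129 ± 42.1, mt-Atp6 with 92.8 ± 26.8, mt-Co3 with 45.1 ± 6.96, mt-Nd4l with 17.8 ± 2.93, mt-Nd3 with 9.21 ± 5.78 and mt-Atp8 with 1.19 ± 0.610 FPKM. The control ranges of mt-Cytb and mt-Nd1 overlapped, as did those of mt-Nd2 and mt-Nd4, mt-Nd4 and mt-Nd6, mt-Nd6 and mt-Nd5, mt-Co2 and mt-Atp6, and mt-Nd4l and mt-Nd3. The drop from mt-Nd5 to the next mRNA separated the ranges in both groups. In the knockout the order of the 11 highest mRNAs was the same, and mt-Atp8 with 11.9 ± 16.3 stood beside mt-Nd3 with 6.56 ± 0.654 FPKM, with overlapping ranges. The 6 mRNAs at low levels lie side by side on the genome, from mt-Co2 to mt-Nd4l (MT:7013-10173), and nearly all of the sequence of 5 of them is also annotated on chromosome 1, as described below.

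**Figure D2:**
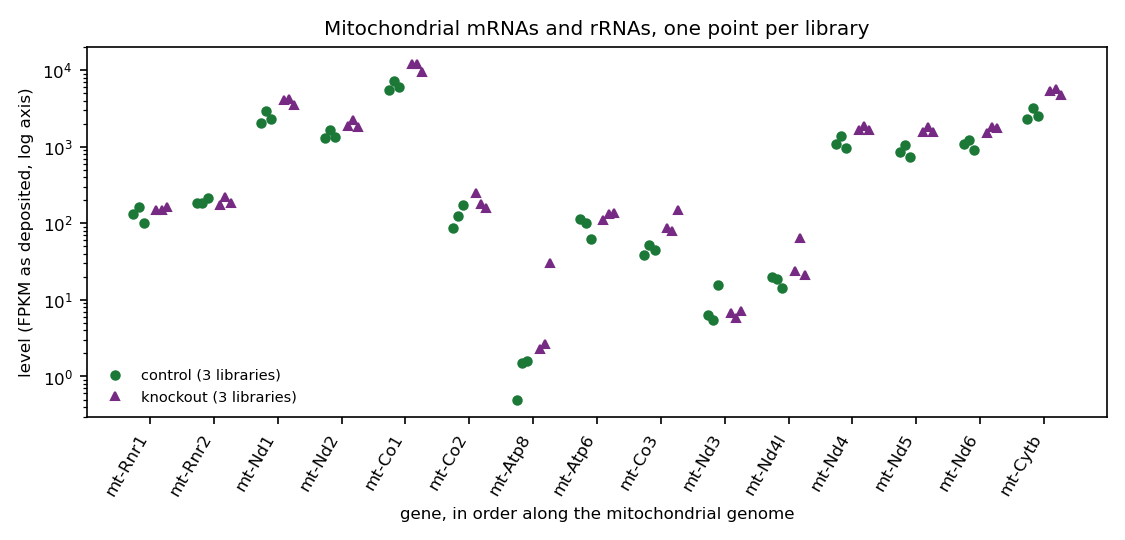
Level in FPKM as deposited (log axis) of the 2 rRNAs and 13 mRNAs, in their order along the mitochondrial genome. Each point is a library, circles for control and triangles for knockout; mt-Co1 is highest in both groups, and the stretch from mt-Co2 to mt-Nd4l stays at or under 249 FPKM in every library.

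Of the 13 mRNAs, 8 were higher in the knockout as deposited, 0 were lower and 5 were not called. Their median log2 difference was 0.71. The share higher among all genes tested was 36.2%, and the share lower 50.4%. By FPKM rescaled to the same sum, and also by reads scaled with the library total, 12 of the 13 were higher and 0 lower, beside 54.2% and 50.4% of all genes. In 10 of the 13, all knockout libraries lay above all controls in FPKM as deposited, and 36.9% of all genes tested had such a gap.

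Complex I, the NADH dehydrogenase that feeds electrons into the chain, has 7 subunits made from the mitochondrial genome, and 5 of their mRNAs rose. mt-Nd5 (MT:11742-13565) measured 858, 1058 and 736 FPKM in the controls, against 1545, 1804 and 1561 FPKM in the knockout. Every knockout library was above every control, and the log2 difference was 0.90 ± 0.153 (SE; adjusted p = 0.000685). mt-Nd1 (MT:2751-3707), the subunit near the quinone site, measured 2022, 2902 and 2298 FPKM in the controls, against 4038, 4152 and 3544 FPKM in the knockout. The groups did not overlap, and the log2 difference was 0.71 ± 0.163 (adjusted p = 0.00360).

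mt-Nd4 and mt-Nd2 encode further membrane subunits of the proton-pumping arm. mt-Nd4 (MT:10167-11544) measured 1070, 1380 and 966 FPKM in the controls, against 1652, 1876 and 1647 FPKM in the knockout (log2 difference 0.61 ± 0.153, adjusted p = 0.00563). mt-Nd2 (MT:3914-4951) measured 1299, 1661 and 1352 FPKM in the controls, against 1840, 2205 and 1804 FPKM in the knockout (log2 difference 0.44 ± 0.143, adjusted p = 0.0190). In both genes all knockout libraries lay above all controls. The call for mt-Nd2 rests on single libraries: without control 1, control 3, knockout 1 or knockout 2 it was not called (adjusted p up to 0.0864). With no filter on low levels, the calls for mt-Nd1 and mt-Nd2 were lost too (adjusted p = 0.0742 and 0.134), beside ranges over their alternatives of 2.97e-06 to 0.0742 and 3.99e-06 to 0.134.

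mt-Nd6 (MT:13552-14070) is the single mRNA gene on the minus strand, so its RNA comes from the other precursor. It measured 1073, 1234 and 905 FPKM in the controls, against 1490, 1793 and 1773 FPKM in the knockout, with no overlap and a log2 difference of 0.66 ± 0.147 (adjusted p = 0.00310). Its ratio to mt-Nd5, the gene that faces it across a 14-base overlap on the other strand, was below the controls in every knockout library. The log2 ratio of reads was -1.49, -1.59 and -1.51 in the controls, against -1.86, -1.82 and -1.63 in the knockout (difference -0.24, exact permutation p = 0.1). Over all minus-strand against all plus-strand genes, the groups overlapped (difference -0.14, exact permutation p = 0.4). Whether reads were counted by strand is not given in the sources used here. Without strand, reads of mt-Nd6 and of RNA antisense to it cannot be told apart.

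The other complex I mRNAs, mt-Nd4l and mt-Nd3, were not called as deposited. mt-Nd4l (MT:9877-10173) measured 20.1, 18.7 and 14.5 FPKM in the controls, against 23.6, 63.9 and 21.3 FPKM in the knockout. Its groups did not overlap, but knockout 2 stood far above the other libraries, with 384 reads beside 152 and 131, and the log2 difference of 0.84 had an adjusted p of 0.0708. mt-Nd3 (MT:9459-9806) measured 6.30, 5.47 and 15.9 FPKM in the controls, against 6.77, 5.82 and 7.08 FPKM in the knockout. Control 3 was the highest of all 6 libraries and the groups overlapped. The log2 difference of -0.31 had a 95% interval of -1.12 to 0.50 (adjusted p = 0.421), and it was 0.58 by reads scaled with the library total. Control 3 alone set its sign as deposited, since the difference was 0.14 without that library.

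Cytochrome b, the product of mt-Cytb (MT:14145-15288), is the single subunit of complex III encoded there. It measured 2296, 3165 and 2536 FPKM in the controls, against 5394, 5752 and 4708 FPKM in the knockout. The groups were far apart, and the log2 difference of 1.00 ± 0.162 had an adjusted p of 0.000533. mt-Cytb was also a larger part of the mRNA pool in every knockout library: it held 14.5%, 15.2% and 15.1% of the mitochondrial mRNA reads in the controls, against 16.9%, 17.0% and 16.9% in the knockout. Its log2 ratio to mt-Nd1 was above the controls in every knockout library, with means of 0.41 in the control and 0.69 in the knockout (difference 0.28, exact permutation p = 0.1).

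Complex IV, cytochrome c oxidase, passes the electrons to oxygen, and its 3 largest subunits come from mt-Co1, mt-Co2 and mt-Co3. mt-Co1 (MT:5328-6872) is the catalytic subunit. It measured 5439, 7171 and 6098 FPKM in the controls, against 11866, 12093 and 9586 FPKM in the knockout. The groups did not overlap, and the log2 difference was 0.84 ± 0.173 (adjusted p = 0.00200). With no filter on low levels it was not called, and over its alternatives the adjusted p ranged from 1.60e-06 to 0.147. It made up 46.5%, 46.4% and 48.9% of the mitochondrial mRNA reads in the controls, against 50.3%, 48.4% and 46.5% in the knockout, so its part of the mRNA pool overlapped between the groups (exact permutation p = 0.5).

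mt-Co3 (MT:8607-9390) measured 38.1, 52.0 and 45.0 FPKM in the controls, against 87.2, 80.2 and 150 FPKM in the knockout. Knockout 3 was highest, the groups did not overlap, and the log2 difference was 1.18 ± 0.236 (adjusted p = 0.00177). mt-Co2 (MT:7013-7696) measured 87.8, 126 and 172 FPKM in the controls, against 249, 178 and 158 FPKM in the knockout. Here control 3 reached the range of the knockout, and the log2 difference of 0.62 was not called (adjusted p = 0.0511).

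Complex V, the ATP synthase, takes the proton channel subunit from mt-Atp6 and a small membrane subunit from mt-Atp8, and neither was called as deposited. mt-Atp6 (MT:7927-8607) measured 115, 101 and 62.9 FPKM in the controls, against 111, 133 and 135 FPKM in the knockout, and the groups overlapped (log2 difference 0.48, adjusted p = 0.0646). mt-Atp8 (MT:7766-7969) had 1, 4 and 4 reads in the controls, against 10, 11 and 130 in the knockout. The groups did not overlap, but knockout 3 held most of the reads, and the log2 difference of 2.02 had a 95% interval of -0.01 to 4.04 (adjusted p = 0.0582). mt-Atp8 shares 43 bases with mt-Atp6, so reads there could belong to either gene.

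**Figure D3:**
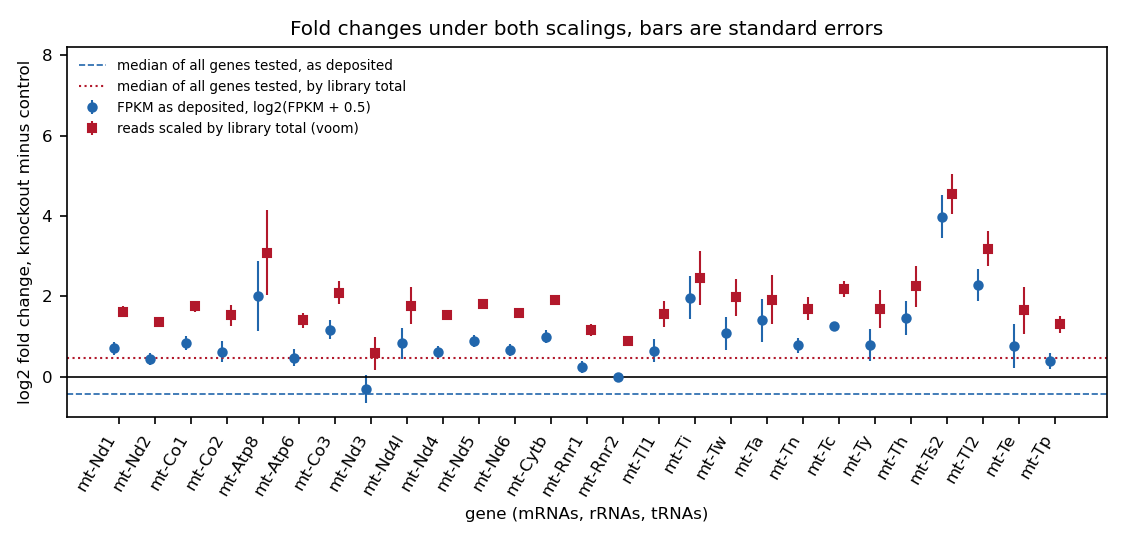
Log2 fold change, knockout minus control, of the 27 members tested, with standard errors as bars. Circles are FPKM as deposited, squares are reads scaled by library total, and the dashed and dotted lines are the medians of all genes tested (-0.41 and 0.46); mt-Rnr2 and mt-Nd3 are the members under 0 as deposited, and no member is under 0 by library total.

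Both rRNAs stayed without a call as deposited and rose by reads scaled with the library total. mt-Rnr1 (MT:70-1024), the RNA of the small ribosomal subunit, measured 131, 162 and 102 FPKM in the controls, against 147, 151 and 163 FPKM in the knockout. Its groups overlapped, and the log2 difference was 0.25 with a 95% interval of -0.13 to 0.62 (adjusted p = 0.181). mt-Rnr2 (MT:1094-2675), the RNA of the large subunit, measured 183, 186 and 213 FPKM in the controls, against 176, 221 and 182 FPKM in the knockout, with a log2 difference of -0.01 and an interval of -0.29 to 0.26 (adjusted p = 0.913). By library total the differences were 1.16 ± 0.152 for mt-Rnr1 and 0.90 ± 0.106 for mt-Rnr2 (voom adjusted p = 6.87e-05 and 3.30e-05). Among the mRNAs, mt-Nd3 lay under both rRNAs on that scale with 0.58. The other mRNAs lay above both, the lowest of them mt-Nd2 with 1.36. The ratio of mt-Rnr2 to mt-Rnr1 overlapped between the groups (log2 difference -0.26, exact permutation p = 0.6).

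Within the mRNA pool, mt-Nd2 held a smaller part in every knockout library, where mt-Cytb held a larger one. mt-Nd2 held 7.45%, 7.22% and 7.28% of the mitochondrial mRNA reads in the controls, against 5.24%, 5.93% and 5.88% in the knockout. All knockout libraries were below all controls. The parts of mt-Nd1 and mt-Nd3 were below the controls too. Control and knockout means were 11.2% and 10.5% for mt-Nd1, and 0.0162% and 0.00648% for mt-Nd3. The gaps were narrow: the lowest control and highest knockout were 10.70% and 10.65% for mt-Nd1, and 0.00797% and 0.00774% for mt-Nd3. Most of the mt-Nd3 sequence is also annotated on chromosome 1, as described below. For the other 9 mRNAs the groups overlapped. The log2 ratio of mt-Nd5 to mt-Nd2 reads was 0.22, 0.16 and -0.07 in the controls. It was 0.56, 0.52 and 0.60 in the knockout (difference 0.46, exact permutation p = 0.1). The part of mt-Nd5 itself overlapped between the groups, with means of 7.90% and 8.40%. A trend along the strand was not tested.

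The tRNAs gave few reads, 1089 over the 3 control libraries and 3068 over the 3 knockout libraries for all 22 genes together. No read fell on 5 of them (mt-Tf, mt-Tv, mt-Ts1, mt-Td and mt-Tk), where a count of 0 allows 0.177 to 0.206 reads per 1000000 in each library. Another 7 had fewer than 10 reads over the 6 libraries, and 10 had 10 or more. Minus-strand genes held 81.5% of all tRNA reads, and mt-Tp, the proline tRNA and the last gene in the numbering of the genome, held 46.9% alone. A tRNA gene collects reads from the mature tRNA, from uncut precursors and, without strand, from RNA of the opposite strand, and gene totals cannot tell these apart. The sequences of the 5 tRNAs on which the results below turn are shown in the sense of the gene, with the anticodon in capitals, from GENCODE M21 (GRCm38).
mt-Th: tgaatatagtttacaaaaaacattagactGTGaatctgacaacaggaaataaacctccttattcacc
mt-Ts2: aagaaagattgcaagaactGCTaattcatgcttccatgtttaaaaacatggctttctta
mt-Tl2: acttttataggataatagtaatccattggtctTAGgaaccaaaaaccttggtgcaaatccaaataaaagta
mt-Tc: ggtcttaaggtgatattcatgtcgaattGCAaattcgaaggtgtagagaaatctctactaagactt
mt-Tp: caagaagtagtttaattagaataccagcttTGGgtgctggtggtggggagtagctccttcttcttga

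The first 3 stand next to each other between mt-Nd4 and mt-Nd5 (MT:11546-11741) and carry histidine, serine and leucine. mt-Ts2, the shortest of all the mitochondrial tRNAs at 59 bases, had 1, 0 and 0 reads in the controls, against 16, 15 and 15 in the knockout. By share of reads the ratio was 49.2, with an exact 95% counting interval of 8.40 to 1985. On the deposited scale the ratio was 26.1 (interval 4.45 to 1053). The intervals cover counting error only. Because mt-Ts2 passed the filter only through the knockout libraries, its values are a description only. mt-Tl2 had 6, 3 and 2 reads in the controls, against 42, 30 and 26 in the knockout, a ratio by share of 9.53 (interval 5.10 to 19.7) with no overlap between the groups (log2 difference 2.29 ± 0.398 in FPKM, adjusted p = 0.000782). mt-Th had 1, 1 and 3 reads in the controls, against 5, 9 and 13 in the knockout, and its groups overlapped in FPKM (log2 difference 1.46, adjusted p = 0.0117). The 3 together, mt-Ts2 included, gave 4.41, 1.28 and 2.11 reads per 100000 mitochondrial mRNA reads in the controls. In the knockout they gave 7.98, 6.91 and 8.19, above every control. The control values rest on 8, 4 and 5 reads.

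mt-Tc, the cysteine tRNA (MT:5192-5257, minus strand), gave the smallest p among the members. It had 40, 57 and 44 reads in the controls, against 206, 202 and 190 in the knockout, or 60.4, 65.7 and 54.1 FPKM against 144, 151 and 139 FPKM. The groups lay far apart, with a log2 difference of 1.27 ± 0.0968 (adjusted p = 5.87e-06). Its neighbour mt-Tn, for asparagine, had 27, 33 and 21 reads against 99, 82 and 67, also with no overlap (log2 difference 0.78, adjusted p = 0.00550). Both belong to the cluster of 5 tRNAs for tryptophan, alanine, asparagine, cysteine and tyrosine between mt-Nd2 and mt-Co1, which gave 44.6, 34.4 and 36.2 reads per 100000 mitochondrial mRNA reads in the controls, against 46.9, 45.0 and 46.4 in the knockout.

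mt-Tp was below the controls in the knockout when set against the mRNAs. It had 158, 283 and 158 reads in the controls, against 451, 500 and 400 in the knockout, and in FPKM its groups overlapped (log2 difference 0.40, adjusted p = 0.0831). Together with mt-Tt beside it, which had 2 reads in all, it gave 87.0, 90.2 and 66.5 reads per 100000 mitochondrial mRNA reads in the controls, against 57.1, 64.0 and 61.0 in the knockout. All knockout libraries were below all controls. mt-Tl1, next to mt-Rnr2, gave 14.3, 11.8 and 30.3 in the controls, against 13.7, 16.4 and 16.7 in the knockout, and mt-Te, beside mt-Nd6, gave 3.30, 5.74 and 14.7 against 9.75, 6.40 and 4.25. In both of these the groups overlapped, and control 3 was the highest control.

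A mean of at least 1 FPKM was reached by 12 of the 22 tRNAs, and 8 of these were called higher as deposited, 0 lower, beside 36.2% and 50.4% of all genes tested. mt-Ti, mt-Ts2 and mt-Ta passed this filter only through the knockout libraries and are among the 8, so the count is a description only. mt-Ti had 0 reads in the controls, against 7, 1 and 1 in the knockout. The exact 95% counting interval of its ratio by share of reads began at 2.11. mt-Ta had 1 read over the controls and 7 over the knockout, with a counting interval of 0.962 to 337 on the ratio of 7.49. The calls for mt-Tw, mt-Ta and mt-Th were each lost when single libraries were left out: mt-Tw without control 2, control 3, knockout 2 or knockout 3, mt-Ta without control 1, control 3, knockout 2 or knockout 3, and mt-Th without control 1 or control 2. Among those tested, mt-Tl1, mt-Ty, mt-Te and mt-Tp were not called as deposited, and all 12 were called higher by reads scaled with the library total, as were 50.4% of all genes tested.

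Stretches of mitochondrial DNA have been copied into the nuclear genome, and the mouse has such a copy on chromosome 1 (GRCm38, chr1:24611535-24616197, minus strand). Its annotated parts aligned within MT:6390-11042. It is annotated as 7 pseudogenes, in the same order as the mitochondrial genes and with the same spacing apart from 1 base between the copies of mt-Nd3 and mt-Nd4l. Over their aligned lengths the copies of mt-Co2, mt-Atp6, mt-Co3, mt-Nd3, mt-Nd4l and mt-Nd4 were identical to the mitochondrial genes in GENCODE M21. The copy of mt-Co1 aligned to positions 1063 to 1545 of the gene, from base 10 of its 492 bases on. Within that stretch it differs by A1066T, counted from the first base of mt-Co1. This is written as the mitochondrial base, the position and the base of the copy. The difference lies near the start of the alignment, and the bases of the copy before that start did not align. The starts of 2 such pairs are shown because reads from them fit both places equally, and the differing base of mt-Co1 and its copy is in capitals.
mt-Nd4l: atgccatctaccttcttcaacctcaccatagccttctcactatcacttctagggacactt
Gm10222: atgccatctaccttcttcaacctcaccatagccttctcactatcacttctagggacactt
mt-Co2: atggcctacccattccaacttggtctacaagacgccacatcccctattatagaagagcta
Gm28661: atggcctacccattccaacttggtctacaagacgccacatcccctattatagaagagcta
mt-Co1: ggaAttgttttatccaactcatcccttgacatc
Gm29216: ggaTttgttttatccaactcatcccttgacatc

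Windows of 50 bases that also occur in an annotated nuclear transcript made up 100% of mt-Co2, 99.9% of mt-Co3, 99.5% of mt-Atp6, 98.8% of mt-Nd4l and 98.0% of mt-Nd3. The share was 62.2% in mt-Nd4, 51.1% in mt-Co1, 8.19% in mt-Nd2, 7.61% in mt-Nd5 and 1.04% in mt-Rnr2. It was 0 in mt-Nd1, mt-Nd6, mt-Cytb, mt-Atp8, mt-Rnr1 and every tRNA. The 5 mRNAs at or above 98.0% are the low ones of the level order, together with mt-Atp8, which lies inside the copied stretch but has no annotated transcript there. The 5 tRNAs that lie between the copied genes (mt-Ts1, mt-Td, mt-Tk, mt-Tg and mt-Tr) had 2 reads in the controls, against 1 in the knockout, beside 1087 and 3067 for the other 17. How reads that fit several places were counted is not given in the sources used here. The values of these genes are therefore uncertain, and the part of the copies in their low levels was not tested.

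**Figure D4:**
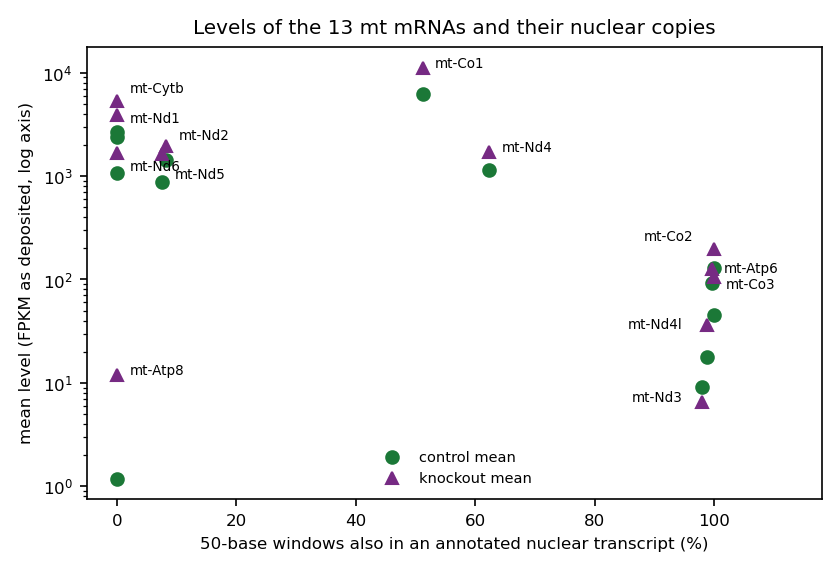
Mean level in FPKM as deposited (log axis) of the 13 mt mRNAs against the share of their 50-base windows that also occur in an annotated nuclear transcript (%). Circles are control means and triangles knockout means over 3 libraries; the 5 mRNAs with at least 98.0% of windows shared lie at or under 195 FPKM, as does mt-Atp8 with 0%.

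The copies themselves carried reads, and their share was also larger in every knockout library. The 7 copies together held 0.00932%, 0.0162% and 0.00982% of all reads in the controls, against 0.0376%, 0.0489% and 0.0355% in the knockout, a ratio of 3.45 with no overlap (exact permutation p = 0.1). As deposited, 6 of the 7 were called higher and 0 lower, beside 36.2% and 50.4% of all genes tested. With a pseudocount of 0.1, with no filter or with no trend, 5 of the 7 were called. Gm28661, the copy of mt-Co2, had 523, 819 and 699 reads in the controls, against 1780, 1929 and 1723 in the knockout (log2 difference 0.60 in FPKM, adjusted p = 0.000704). Gm28438, the copy of mt-Nd3, had 44, 86 and 9 reads against 316, 251 and 275 (log2 difference 2.17, adjusted p = 0.0138).

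Reads of a gene and its copy were also added up, a step chosen after these values had been seen. For mt-Nd3 the sum was 66, 111 and 77 reads in the controls, against 367, 292 and 326 in the knockout. Per 1000000 reads the means were 5.26 in the control and 22.0 in the knockout, a ratio of 4.18, and all knockout libraries lay above all controls. The mitochondrial gene held 33.3%, 22.5% and 88.3% of that sum in the controls, against 13.9%, 14.0% and 15.6% in the knockout, so the division of reads between gene and copy differed most in control 3, the library with the high mt-Nd3 value. Over all 7 pairs the summed reads had ratios of 2.85 to 4.18, and in each pair the knockout libraries were above the controls. Of all genes tested, 50.4% were called higher by reads scaled with the library total. Such a gap between the groups was counted over all genes only in FPKM as deposited, where 36.9% had it. For mt-Co1 and mt-Nd4 the gene held at least 99.0% of the sum in every library. Their copies aligned to only 483 of 1545 and 876 of 1378 bases, so these parts are not comparable with those of the other pairs.

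The nuclear genes that act on mitochondrial DNA and RNA were counted in lists. The counts are to be read against all genes tested, of which 36.2% were higher and 50.4% lower as deposited, and 54.2% higher and 36.2% lower after rescaling to the same FPKM sum. In the list for transcription and RNA processing, 16 of 35 genes tested were higher as deposited and 15 lower, with a median log2 difference of 0.07. After rescaling, 23 were higher and 6 lower. The 4 with the smallest p fell both as deposited and after rescaling. Nsun4, which methylates the small rRNA and helps to join the ribosomal subunits, fell from 62.0 ± 7.79 to 3.08 ± 0.162 FPKM (SD, n = 3; log2 difference -4.12, adjusted p = 1.32e-08). Tfam, the packaging and initiation factor, measured 38.3, 31.9 and 37.6 FPKM in the controls, against 8.30, 8.90 and 8.61 FPKM in the knockout (0.239 times the control mean, adjusted p = 4.90e-07). Its log2 difference was -0.86 after rescaling and -1.14 by library total, while 12 of the 13 mitochondrial mRNAs were called higher on each of these scales. Ptcd2, which acts on the mt-Cytb transcript, fell by 1.77 on the log2 scale (adjusted p = 3.12e-06), and Mterf3, which binds mitochondrial DNA and restrains transcription, fell by 1.63 (adjusted p = 1.30e-05).

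Genes for tRNA modification and charging were higher in 20 and lower in 7 of 31 tested as deposited, with a median of 0.56, and in 27 and 3 after rescaling. Of the examples, Vars2, which charges the valine tRNA, rose from 1.98 ± 0.249 to 7.69 ± 0.706 FPKM (SD, n = 3; log2 difference 1.72, adjusted p = 6.11e-06). Mars2, which charges the methionine tRNA, fell from 26.0 ± 3.63 to 5.22 ± 0.947 FPKM (log2 difference -2.22, adjusted p = 2.97e-06). Genes for replication of mitochondrial DNA and its nucleotide supply were higher in 13 and lower in 4 of 17 tested, with a median of 0.96, and in 15 and 1 after rescaling. Ssbp1, the single-strand binding protein, measured 1.02, 1.18 and 1.40 FPKM in the controls, against 4.81, 4.81 and 5.41 FPKM in the knockout (log2 difference 1.70, adjusted p = 8.74e-06), and Lig3, the DNA ligase, fell by 2.26 on the log2 scale (adjusted p = 1.19e-06).

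Of the regulators of mitochondrial biogenesis, 5 of 6 tested were higher and 1 lower as deposited, and 6 of 6 were higher after rescaling. The list holds 8 genes, and with no filter on low levels 5 of the 8 were higher and 3 lower. Pprc1, a coactivator of the family of PGC-1, measured 3.04, 4.11 and 4.31 FPKM in the controls, against 22.6, 22.9 and 28.9 FPKM in the knockout, a log2 difference of 2.56 (adjusted p = 1.53e-06). The transcription factors Nrf1 and Gabpa, which act on many nuclear genes of the respiratory chain, rose by 0.82 and 0.88 on the log2 scale (adjusted p = 0.000307 and 6.26e-05). Import and mass markers were split as deposited, 10 higher and 7 lower of 18, and 15 and 3 after rescaling. Lonp1, the matrix protease, rose by 2.04 and Vdac2, a channel of the outer membrane, fell by 2.60 on the log2 scale (adjusted p = 1.83e-07 and 1.62e-07).

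Proteins of the mitochondrial ribosome were split, with 32 of 82 genes tested higher and 34 lower as deposited and a median of -0.04, and 64 higher and 8 lower after rescaling. Mrpl39 measured 71.4, 59.7 and 66.8 FPKM in the controls, against 11.1, 11.3 and 9.36 FPKM in the knockout, and fell on every scale used (log2 difference -2.59 as deposited, adjusted p = 1.75e-07). Of the translation factors, 5 of 11 were higher and 4 lower as deposited, and 8 and 1 after rescaling. Oxa1l, which inserts new proteins into the inner membrane, rose by 1.21 (adjusted p = 1.68e-05).

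The nuclear partners of the mitochondrial subunits had more lower than higher calls as deposited, as did all genes tested (50.4% lower, 36.2% higher). Of the nuclear complex I genes, 8 of 35 tested were higher and 23 lower (median -0.65), while 5 of the 7 mitochondrial ones were higher and 0 lower. For complex III, 2 of 9 nuclear genes were higher and 5 lower (median -0.49), for complex IV 5 of 15 were higher and 9 lower (median -0.42), and for complex V 4 of 16 were higher and 5 lower (median -0.15). After rescaling these splits turned to 21 higher and 6 lower for complex I, 6 and 3 for complex III, 10 and 4 for complex IV, and 15 and 1 for complex V, with medians of 0.52, 0.68, 0.77 and 1.03. The mitochondrial mRNAs had a median of 1.90 on that scale. All 4 genes of complex II, which has no mitochondrial subunit, had a median of -0.06 as deposited and 1.12 after rescaling. The median of all genes tested was 0.71 on that scale.

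Among the single subunits that fell were testis forms of complex IV subunits. Cox8c and Cox6b2, both forms of this kind, fell from 737 ± 113 to 18.5 ± 6.37 FPKM and from 192 ± 19.3 to 10.5 ± 0.977 FPKM (log2 differences -5.32 and -4.13, adjusted p = 1.74e-07 and 1.10e-08). Uqcrq of complex III fell from 105 ± 8.13 to 18.4 ± 0.962 FPKM (log2 difference -2.48, adjusted p = 7.42e-08). Ndufv2 of complex I measured 139, 124 and 130 FPKM in the controls, against 41.3, 48.5 and 44.2 FPKM in the knockout, a fall of 1.55 on the log2 scale (adjusted p = 1.46e-06). Others went up: Cyc1, cytochrome c1 of complex III, measured 17.4, 22.4 and 24.3 FPKM against 62.3, 67.4 and 68.2 FPKM (log2 difference 1.61, adjusted p = 7.82e-06), and Atp5g2, a ring subunit of the ATP synthase, 8.80, 11.8 and 12.2 FPKM against 34.0, 35.6 and 31.9 FPKM (3.10 times the control mean, adjusted p = 9.90e-06).

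**Figure D5:**
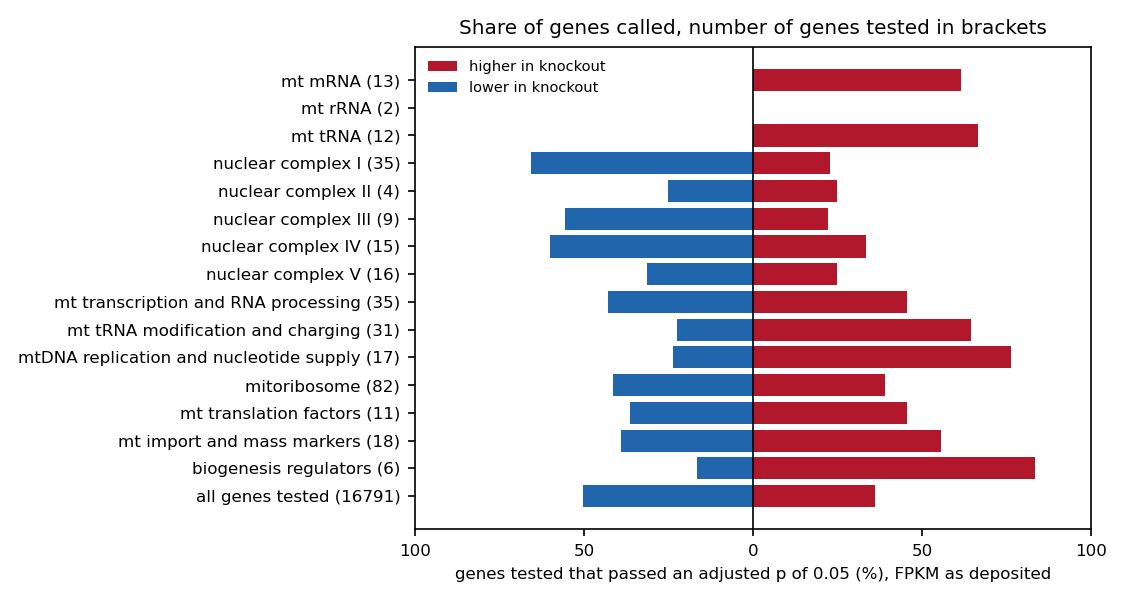
Share of genes tested that passed an adjusted p of 0.05 as deposited (%, horizontal axis), higher to the right and lower to the left, for the mitochondrial classes, the nuclear lists and all genes, with the number tested in brackets. The mt mRNAs and mt tRNAs have calls on the higher side only, and the 2 rRNAs have none. Complexes I, III, IV and V have more lower than higher calls among their nuclear genes.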

How the data were processed

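RNA was measured in 6 libraries, grouped by the labels' titles into 3 controls and 3 knockouts. The submitters' processing notes name HISAT2 2.0.5 and the build mm10. Not given in the sources used here are the counter, the annotation release, the strand setting and the treatment of multiply mapped reads. The authors deposited FPKM for 54532 genes. FPKM times gene length gave whole multiples of 1 read for 100% of nonzero values (within 0.01 read), so reads were recovered. The divisor found behind the deposited values equals the geometric mean of the library totals, multiplied by a median-of-ratios size factor over 19526 genes.

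The test was run in R 4.3.3 with limma 3.58.1 for genes whose mean reached 1 FPKM, on log2(FPKM + 0.5), with empirical Bayes moderation, a mean-variance trend and Benjamini-Hochberg adjustment over 16791 genes. Shares and read ratios had exact two-sided permutation tests. Read ratios carry exact 95% intervals, which cover counting error only. Copies were found with 50-base windows and pairwise alignments of GENCODE M21 transcripts (Biopython 1.88); all 37 members had the same coordinates there. The model was also run on simulated libraries in which few genes changed and FPKM were scaled by the library total. Such libraries do not test the deposited scaling, nor a comparison in which most genes are called. Alternatives were other pseudocounts (0.1 and 1), no filter or 5 FPKM, 2 rescalings, voom on recovered reads, no trend, the replicate number as a block and each library left out. Named nuclear genes were up to 4 per list with the smallest p, and the members, lists and rules were chosen with earlier results of these data known. Python 3.11.15, numpy 2.4.6, pandas 2.3.3, scipy 1.17.1 and matplotlib 3.10.9 were used.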

Additional observations from a re-analysis of the deposited data

How the results depend on the processing

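The mitochondrial share of reads was higher in the knockout by 3.34 to 3.76 percentage points with each library left out. All 16 calls among the members kept their direction under every alternative that gave a value; mt-Ti, mt-Ts2 and mt-Ta are among them and passed the filter only through the knockout libraries. With no filter, 11 of the 16 passed (mt-Co1, mt-Nd1, mt-Nd2, mt-Tw and mt-Ta did not), with each library left out in turn 13 to 15 did, and with a mean of at least 5 FPKM all 13 that had a value did. The number of members called higher was 16 as deposited, 26 after rescaling, 27 after rescaling over nuclear genes, 26 with voom, and 14 to 18 with a library left out. In each of these 0 were called lower. Of all genes tested, 36.2% were higher as deposited, 54.2% after rescaling, 56.4% after rescaling over nuclear genes and 50.4% with voom. Over all genes, 3227 were higher and 5320 lower with a mean of at least 5 FPKM, where fewer genes were tested, 9464 were higher after rescaling over nuclear genes, and 5749 to 5934 were higher and 8270 to 8373 lower with a library left out.

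Over all genes tested, 7271 had a difference above 0 as deposited, 9979 after rescaling, 10271 after rescaling over nuclear genes and 9470 with voom. Among the 27 members tested the sign turned for mt-Rnr2 (1.17, 1.34 and 0.90 in the order of those 3 alternatives) and mt-Nd3 (0.84, 1.01 and 0.58). Among the nuclear subunits with the smallest p of each complex it turned for Sdhb (0.60, 0.77 and 0.33), Sdhd (1.11, 1.27 and 0.84), Sdha (1.14, 1.30 and 0.87) and Atp5h (0.37, 0.54 and 0.10). The scalings differ by construction in the library factor. With single libraries left out, mt-Rnr2 ranged from -0.12 to 0.055 and mt-Nd3 from -0.58 to 0.14.

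As shares of summed FPKM the knockout minus control differences were 10.4 percentage points for all members, 10.01 for mRNAs, 0.0981 for rRNAs, 0.253 for tRNAs and 0.173 for the copies, since FPKM divides reads by gene length. The read ratio of the 6 mRNAs of the copied stretch to the other 7 changed by -0.11, with groups that overlapped, and by -0.22 to 0.0032 with a library left out.

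Same-numbered libraries did not deviate together (r = -0.12, -0.05 and -0.04 over 16791 genes), so no pairing by number was seen. With so few libraries in a group, these correlations cannot exclude one. With the replicate number as a block, 19 members were called higher, 0 lower, beside 5930 higher and 8364 lower of the 16791 genes tested. The 16 calls were kept, and mt-Tp, mt-Nd4l and mt-Atp8 were added. Depth limits the tRNAs most, since 12 of 22 had fewer than 10 reads.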
